A study of Mus musculus with 6 samples.

Results

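The genes that write, erase and read DNA methylation were compared between Setd2-deficient and Setd2-proficient kidney tubule cultures. The set comprised 10 genes of the 48526 in the count tables, taken by name: the DNA methyltransferases Dnmt1, Dnmt3a and Dnmt3b, the maintenance factor Uhrf1, the dioxygenases Tet1, Tet2 and Tet3, and the methyl-CpG-binding domain genes Mbd1, Mbd2 and Mbd3. All 10 were found by symbol through GENCODE M21, and all 10 passed the filter on low counts.

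DNA methyltransferases place a methyl group on cytosine, mostly at CpG. Dnmt3a and Dnmt3b methylate new sites, and Uhrf1 brings Dnmt1 to newly copied DNA so that the pattern is kept through cell division. TET enzymes oxidise methylcytosine, which starts its removal, and MBD proteins bind methylated DNA or sit in repressor complexes. Trimethylation of lysine 36 on histone H3, the mark that Setd2 places in transcribed gene bodies, is read by the PWWP domains of Dnmt3a and Dnmt3b, so the 2 systems are biochemically linked.

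RNA came from primary renal tubular epithelial cells, grown from digested kidney cortex of mice aged 4 to 5 weeks in medium that held insulin-transferrin-selenium, 20 ng/ml of EGF and 100 nM of hydrocortisone. KO cultures came from Setd2(F/F)Ksp-Cre+ mice and WT cultures from Setd2(F/F) littermates, with 3 libraries each, so both groups carried the floxed alleles and only KO carried Cre. The Ksp (Cdh16) promoter drives Cre in tubule epithelium, so cells of other kinds in the culture would keep Setd2, and effects of Cre and of the deletion cannot be told apart. Whether each library came from another animal is not in the labels, so the p-values measure the spread of these libraries only, which may be technical in part.

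Library totals lay between 86078636 and 106974842 counts. Setd2 itself was at 152 to 184 CPM (read counts scaled to library size with TMM factors) in WT, against 154 to 163 CPM in the KO libraries. These counts cover the whole gene and not the deleted exons alone, so the deletion is not checked by them. The tubule marker Cdh16 averaged 735 ± 22.4 CPM over WT and 884 ± 60.2 CPM over KO libraries (SD, n = 3 each), and all 15 tubule markers were detected. Xist stood at 507 and 606 CPM in KO replicates 2 and 3 and below 1 CPM in the other 4 libraries, so sex and genotype partly coincide. Of 17571 tested genes, 21.0% had a p below 0.05 from edgeR's quasi-likelihood test after Benjamini-Hochberg adjustment, 12.0% higher and 9.08% lower in KO.

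The WT libraries differed among themselves by GC content, and this touches several of the 10 genes. In WT replicate 1 the median gene lay 0.20 (log2) above the other WT libraries among genes of the lowest transcript GC content (28.7 to 43.7%) and 0.30 below them among genes of the highest (55.1 to 75.5%), when the tested genes are cut into 5 equal bins. WT replicate 3 ran the other way, from 0.17 below to 0.20 above. The KO libraries stayed within 0.04 of their own group in all 5 bins. The KO over WT comparison followed the same axis, with a median log2 fold change of -0.11 in the lowest bin and 0.13 in the highest. Each gene is therefore given below also from a fit that takes each library's GC trend as an offset, an alternative chosen after the data were seen. In that fit 27.4% of genes were called, 14.9% higher and 12.4% lower.

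**Figure D1:**
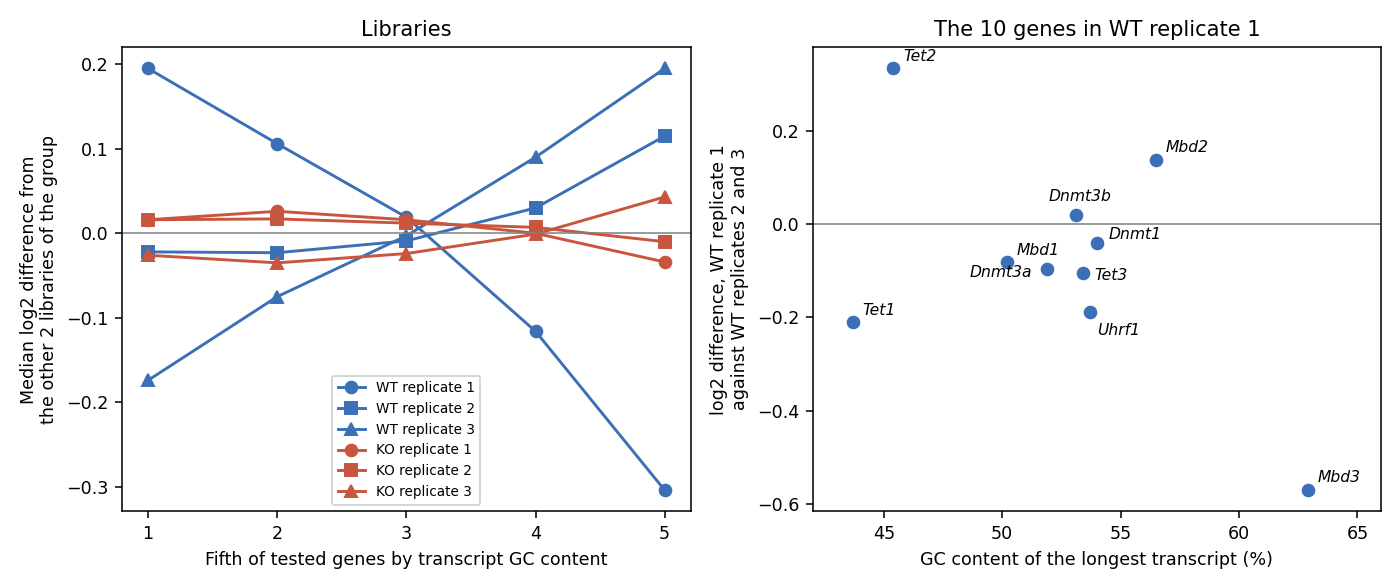
Left, median log2 difference of each library from the other 2 of its group (y axis) in 5 equal bins of the tested genes by transcript GC content (x axis, 1 lowest, 5 highest). WT replicate 1 falls from 0.20 to -0.30 while the KO lines stay near 0. Right, log2 difference of WT replicate 1 from WT replicates 2 and 3 (y axis) for the 10 genes against the GC content of their longest transcript in percent (x axis). Mbd3, with 62.9% GC, is the lowest at -0.57. Mbd2, also in the highest bin, is at 0.14, and Tet1, in the lowest bin, at -0.21. Both lie on the other side of 0 from the median of their bin.

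The DNA methylation genes differed little between KO and WT. Mbd1 was the only one of the 10 that passed the test, at 1.18 times its WT level, against 21.0% of all tested genes. None was called lower by edgeR without the GC offset, by DESeq2 or by limma-voom, and 9 were not called in the main fit. At an unadjusted p below 0.05 there were 4, of which only Tet3 was lower, against 36.3% of all tested genes. The log2 fold changes ran from -0.30 (Tet1) to 0.27 (Mbd2), with a median of 0.03 against -0.01 over all tested genes. Their median absolute log2 fold change was 0.14, against 0.21 over all tested genes. KO and WT values did not overlap for 3 genes that were higher in KO (Dnmt3b, Mbd1, Mbd2) and 2 that were lower (Tet1, Tet3). Over all tested genes the groups did not overlap in 41.9%, with 20.6% higher and 21.3% lower. For single genes the exact permutation test of 3 against 3 libraries cannot go below p = 0.1, so the edgeR fit carries the tests.

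**Figure D2:**
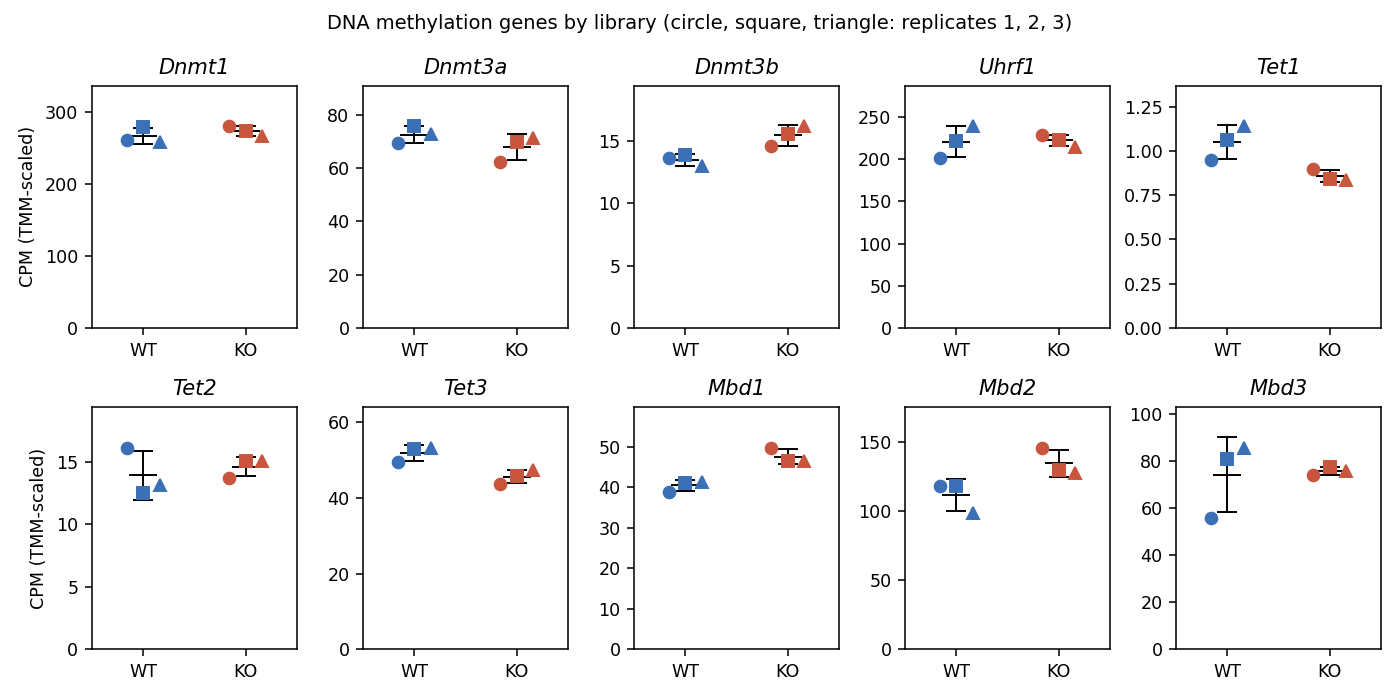
TMM-scaled CPM (y axis, from 0) of the 10 genes in the WT (blue) and KO (red) libraries, with symbols for the replicate number and black bars for the mean and SD (n = 3). The KO points of Mbd1 and Mbd2 lie above all WT points, those of Tet1 and Tet3 lie below them, and one low WT point sets the wide WT bar of Mbd3.

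The 3 methyltransferases are shown first by the stretch that holds their catalytic cysteine, since it shows how near the copies are to each other. Each line gives 60 coding bases read from the GENCODE M21 transcripts, 5′ to 3′ on the coding strand, with the adjoining proline and cysteine codons of the active site in capitals. The windows start 27 bases before the capitals.
Dnmt1: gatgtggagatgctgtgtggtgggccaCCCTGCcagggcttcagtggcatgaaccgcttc
Dnmt3a: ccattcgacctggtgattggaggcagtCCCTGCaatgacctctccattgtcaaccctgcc
Dnmt3b: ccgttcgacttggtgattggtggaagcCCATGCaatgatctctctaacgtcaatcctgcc
Dnmt3a and Dnmt3b were identical at 49 of the 60 bases (81.7%), and Dnmt1 matched each of them at 29 (48.3%). The capitals start at coding base 3682 of 4860 in Dnmt1, 2113 of 2724 in Dnmt3a and 1969 of 2580 in Dnmt3b.

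Dnmt1, the maintenance methyltransferase (ENSMUSG00000004099, GRCm38 chromosome 9, 20907209 to 20959888, minus strand), was measured at 261, 279 and 259 CPM in WT replicates 1 to 3 and at 279.9, 273 and 266 CPM in KO replicates 1 to 3. The 2 groups overlapped. Its log2 fold change was 0.04 ± 0.07 (SE), with an adjusted p of 0.744. The 95% interval of the fold ran from 0.922 to 1.14, which bounds the size of a change that these libraries could hide. With the GC offset the estimate was -0.02 ± 0.06, with an adjusted p of 0.819.

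Uhrf1, which binds hemimethylated CpG and recruits Dnmt1 (ENSMUSG00000001228, chromosome 17, 56303321 to 56323486, plus strand), stood at 202, 221 and 239 CPM in WT and at 229, 223 and 215 CPM in KO. The 3 KO values fell inside the WT range. The log2 fold change was 0.01 ± 0.08, the adjusted p was 0.942 and the 95% interval of the fold ran from 0.894 to 1.13. It was -0.04 both without WT replicate 1 (adjusted p = 0.708) and with the GC offset (adjusted p = 0.644). Uhrf1 shares 14.7% of its 50-base windows with the processed pseudogene Gm5648. That pseudogene was counted at 0.340 to 0.519 CPM, and reads from the shared stretches cannot be assigned with certainty.

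Dnmt3a, a de novo methyltransferase (ENSMUSG00000020661, chromosome 12, 3806007 to 3914443, plus strand), was at 69.4, 75.7 and 72.7 CPM in WT and at 62.3, 70.0 and 71.5 CPM in KO. KO replicate 1 was the lowest library and the other 2 KO values lay within the WT range. A log2 fold change of -0.10 ± 0.08 was estimated with an adjusted p of 0.396, and the 95% interval of the fold ran from 0.831 to 1.05. The GC offset gave a log2 fold change of -0.11 ± 0.06 with an adjusted p of 0.193. The antisense gene Dnmt3aos overlaps 133 of the exon bases of Dnmt3a (0.799%), and without the strand setting of the counting, which no source used here gives, reads of the 2 genes cannot be told apart there.

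Dnmt3b, the other de novo enzyme (ENSMUSG00000027478, chromosome 2, 153649450 to 153687730, plus strand), was at 13.6, 13.9 and 12.97 CPM in WT and at 14.6, 15.6 and 16.2 CPM in KO. Every KO library was above every WT library. Its log2 fold change of 0.20 ± 0.09 had an unadjusted p of 0.0479 and an adjusted p of 0.134, so it did not pass the test. With the GC offset it was 0.15 ± 0.08, with an adjusted p of 0.178.

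Reads of Dnmt3b can also fit Dnmt3c, a rodent copy of Dnmt3b that is known for methylating transposons in male germ cells. The 2 genes share 9.81% of the 50-base windows of Dnmt3b, and the longest identical run holds 287 coding bases. It is printed because no read placed wholly inside it can tell the copies apart. The run spans bases 2461 to 2747 of the Dnmt3b transcript on its coding strand, with no part capitalised.
Dnmt3b and Dnmt3c: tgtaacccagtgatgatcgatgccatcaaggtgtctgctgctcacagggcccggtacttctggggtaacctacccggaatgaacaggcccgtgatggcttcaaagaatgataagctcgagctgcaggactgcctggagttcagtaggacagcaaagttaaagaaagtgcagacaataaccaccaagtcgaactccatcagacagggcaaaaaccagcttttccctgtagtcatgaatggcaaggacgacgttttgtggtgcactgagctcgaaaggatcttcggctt
Dnmt3c was listed at 0 counts in all 6 libraries. No source used here says how reads that fit both genes were counted, so the Dnmt3b level is uncertain to that extent.

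The balance of the 2 de novo enzymes is independent of library scaling. Per length, Dnmt3b stood at 0.639, 0.598 and 0.581 of the Dnmt3a level in WT and at 0.762, 0.726 and 0.738 of it in KO. All 3 KO ratios were above all 3 WT ratios, and the mean was 1.22 times as high. The exact two-sided permutation test gave p = 0.1, the smallest it can give, and 0.5 after Benjamini-Hochberg adjustment over the 10 ratios computed within the families. The groups overlapped in the other 9 ratios, Uhrf1 to Dnmt1 among them (1.34, 1.37 and 1.60 in WT, 1.41, 1.41 and 1.40 in KO).

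Among the erasers, Tet3 (ENSMUSG00000034832, chromosome 6, 83362373 to 83459084, minus strand) was at 49.5, 53.0 and 53.3 CPM in WT and at 43.7, 45.9 and 47.3 CPM in KO. Every KO library was below every WT library. This was a log2 fold change of -0.19 ± 0.08, a fold of 0.879 with a 95% interval from 0.784 to 0.985. The adjusted p was 0.0978, so the gene was not called. With the GC offset the estimate was -0.23 ± 0.06 and the adjusted p 0.0119, so in that fit Tet3 was called lower. That fit has a background of 12.4% called lower.

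Tet2 (ENSMUSG00000040943, chromosome 3, 133463679 to 133545139, minus strand), a TET enzyme without a CXXC domain of its own, was at 16.2, 12.5 and 13.1 CPM in WT and at 13.7, 15.1 and 15.1 CPM in KO. WT replicate 1 was the highest of all 6 libraries and the groups overlapped. Its log2 fold change was 0.07 ± 0.11 with an adjusted p of 0.673. Without WT replicate 1 it was 0.20 with an adjusted p of 0.134, and with the GC offset 0.14 ± 0.09 with an adjusted p of 0.269.

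Tet1, best known from embryonic stem cells (ENSMUSG00000047146, chromosome 10, 62804570 to 62908996, minus strand), was scarce. It had 82, 113 and 110 counts in WT and 79, 80 and 82 counts in KO, which is 0.950, 1.06 and 1.14 CPM against 0.896, 0.840 and 0.835 CPM. The KO values lay below the WT values. The log2 fold change of -0.30 ± 0.18 had an adjusted p of 0.261 and a 95% interval from -0.69 to 0.10, so neither no change nor a fall to 0.62 times the WT level lay outside it at this depth. Under the GC offset the estimate was -0.22 ± 0.19 with an adjusted p of 0.394.

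Among the readers, Mbd1, which binds methylated CpG and has CXXC fingers beside its MBD (ENSMUSG00000024561, chromosome 18, 74267605 to 74282732, plus strand), rose. It was at 39.0, 41.2 and 41.3 CPM in WT and at 49.9, 46.6 and 46.5 CPM in KO. All 3 KO libraries were above all 3 WT libraries, and KO replicate 1 was the highest. The log2 fold change was 0.23 ± 0.08, a fold of 1.18 with a 95% interval from 1.05 to 1.32, and the adjusted p was 0.0463. The GC offset gave 0.24 ± 0.06 with an adjusted p of 0.0113. The call was close to the threshold. The adjusted p was 0.15 without KO replicate 1, 0.0908 without KO replicate 2 and 0.101 without KO replicate 3. It was 0.0986 without WT replicate 2 and 0.0539 without WT replicate 3. With a term for Xist-positive libraries (the Xist term), the KO estimate rests on KO replicate 1 alone against the WT libraries. A call kept or lost in that fit therefore does not separate sex from genotype. Over all these fits the log2 fold changes were 0.22 to 0.30.

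Mbd2, a methyl-CpG binder that can join the NuRD repressor complex (ENSMUSG00000024513, chromosome 18, 70568189 to 70626131, plus strand), was at 118, 118 and 98.1 CPM in WT and at 146, 129.8 and 127 CPM in KO. The groups did not overlap, with WT replicate 3 the lowest and KO replicate 1 the highest. Its log2 fold change of 0.27 ± 0.09, a fold of 1.21 with a 95% interval from 1.05 to 1.38, had an adjusted p of 0.0520 and just missed the threshold. In 8 of 17 alternative analyses it passed. With the GC offset it was 0.15 ± 0.11 with an adjusted p of 0.340, and its transcript has 56.5% GC, in the highest bin. In WT replicate 1 Mbd2 was 0.14 (log2) above the other WT libraries, while the median gene of that bin was 0.30 below them. The part of base composition in the Mbd2 difference was not tested in other ways.

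Mbd3, the MBD protein of NuRD that in mammals hardly binds methylated DNA (ENSMUSG00000035478, chromosome 10, 80392539 to 80399550, minus strand), was at 56.0, 80.7 and 85.7 CPM in WT and at 73.9, 77.6 and 75.6 CPM in KO. WT replicate 1 lay apart from the other 5 libraries. The log2 fold change was 0.03 ± 0.13 with an adjusted p of 0.893. Without WT replicate 1 it was -0.13 with an adjusted p of 0.168, and with the GC offset -0.15 ± 0.06 with an adjusted p of 0.0773. Mbd3 had the highest GC content of the 10 genes, 62.9%, and was 0.57 (log2) lower in WT replicate 1 than in the other WT libraries.

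**Figure D3:**
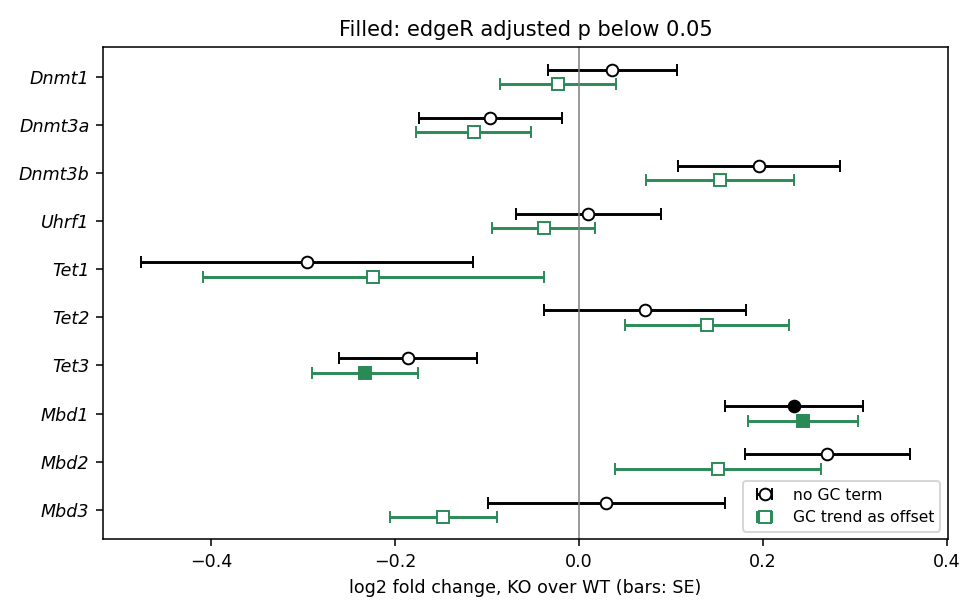
Log2 fold change of KO over WT (x axis, bars are SE) for the 10 genes (y axis), without a GC term (black circles) and with each library's GC trend as an offset (green squares), and filled where the edgeR adjusted p is below 0.05. Mbd1 is filled in both fits, Tet3 only with the offset, and Mbd2 and Mbd3 move furthest between the fits, to 0.15 and -0.15.

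The 3 genes nearest to a call were followed through 17 alternative analyses. Mbd1 was above WT in each of them and passed the threshold in 9. Mbd2 was likewise above WT in each and passed in 8, and Tet3 was below WT in each and passed in 2, both with the GC offset. Over these analyses the log2 fold change ran from 0.22 to 0.30 for Mbd1, from 0.15 to 0.39 for Mbd2 and from -0.25 to -0.14 for Tet3. The other 7 genes passed in none.

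**Figure D4:**
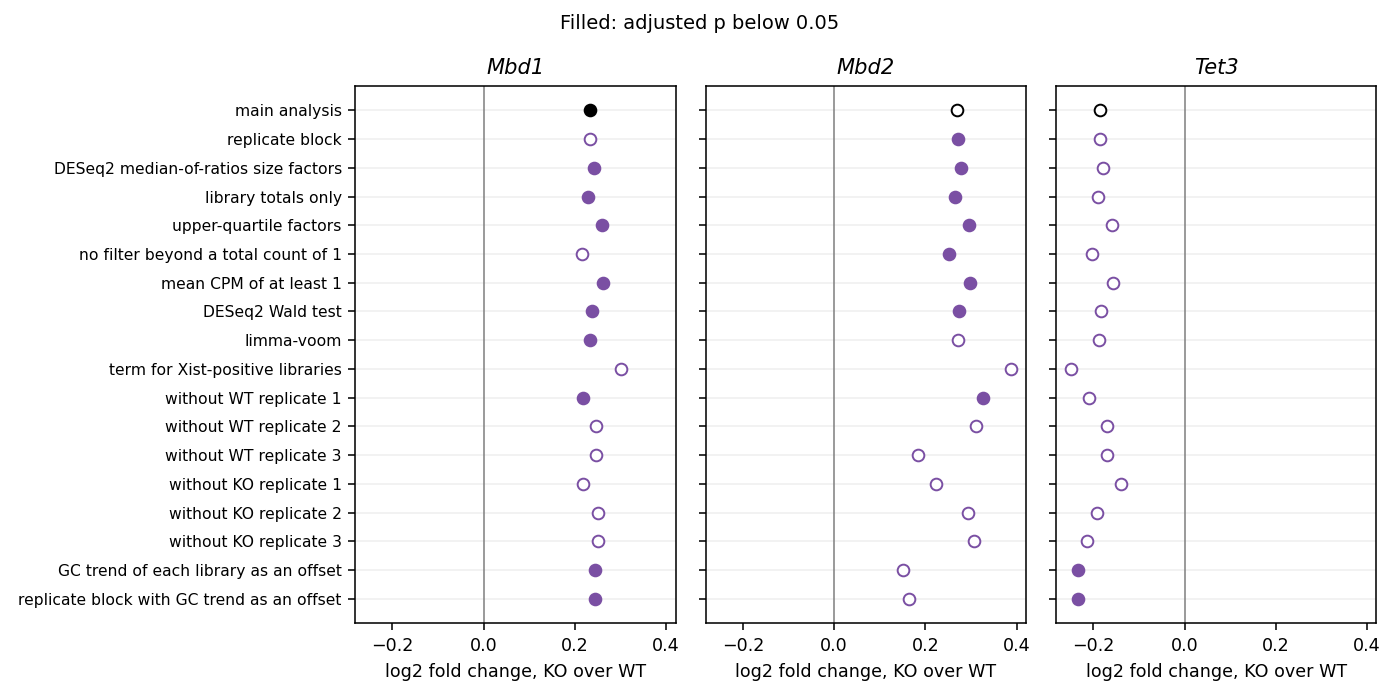
Log2 fold change of KO over WT (x axis) of Mbd1, Mbd2 and Tet3 in the main analysis (black) and 17 alternatives (purple, y axis), filled where the adjusted p is below 0.05. Each gene stays on its side of 0, while the filled points number 9, 8 and 2 of the 17.

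Levels between the genes were compared as TPM, a count scaled by gene length and by the library's sum, computed from the counts and the union of each gene's exons. Uhrf1 was the most abundant at 194 ± 13.2 TPM in WT and 191 ± 4.47 TPM in KO (SD, n = 3 each). Mbd3 (139.8 ± 27.7 TPM in WT), Dnmt1 (135 ± 5.01 TPM) and Mbd2 (130.2 ± 14.8 TPM) followed, and these 3 did not differ beyond their spread. In KO, Mbd2 was at 153 ± 8.41 TPM, Mbd3 at 139.5 ± 6.16 TPM and Dnmt1 at 135 ± 2.33 TPM. Then came Mbd1 (22.7 ± 0.301 TPM in WT, 26.0 ± 0.534 TPM in KO), Dnmt3a (16.4 ± 0.454 and 14.9 ± 1.36 TPM), Tet3 (11.7 ± 0.257 and 10.0 ± 0.578 TPM) and Dnmt3b (9.93 ± 0.433 and 11.1 ± 0.780 TPM). Tet2 (3.11 ± 0.501 and 3.18 ± 0.231 TPM) and Tet1 (0.255 ± 0.0188 and 0.203 ± 0.00402 TPM) were the scarcest. Dnmt3b lay below Tet3 in WT and above it in KO, where the values of the 2 genes met within their spread. Within KO replicates 1 to 3, Dnmt3b was at 10.2, 11.36 and 11.68 TPM and Tet3 at 9.356, 10.23 and 10.45 TPM. This order depended on the length used. With the longest transcript as the length, Tet3 stayed above Dnmt3b in KO (11.66 ± 0.664 against 9.961 ± 0.694 TPM). By that length Mbd2 was the second in WT (162 ± 18.8 TPM) and the first in KO (191 ± 10.7 TPM).

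**Figure D5:**
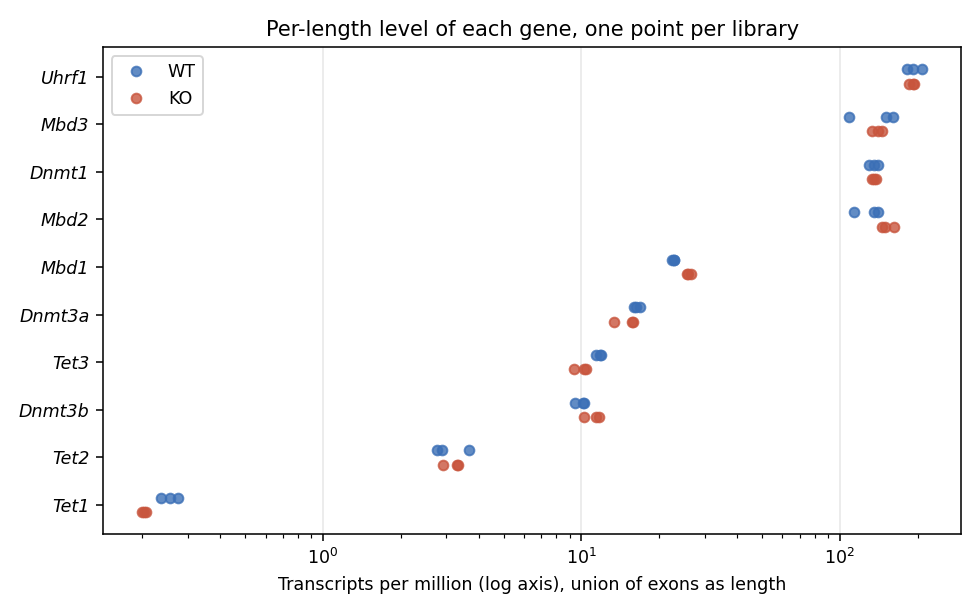
TPM on a log axis (x) of the 10 genes (y axis, ordered by their WT mean), with 1 point per library (WT blue, KO red). Uhrf1, Mbd3, Dnmt1 and Mbd2 form the upper group above 100 TPM, and Tet1 stands alone at 0.199 to 0.274 TPM.

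Within the families, one member carried most of the DNMT and TET transcripts in both groups. Dnmt1 held 83.7 ± 0.171% of the DNMT level in WT and 83.9 ± 1.19% in KO. Dnmt3a held 10.1 ± 0.268% and 9.26 ± 0.759%, and Dnmt3b 6.13 ± 0.154% and 6.86 ± 0.439%. Of the TET level, Tet3 held 77.7 ± 2.86% in WT and 74.8 ± 0.329% in KO, Tet2 20.6 ± 2.98% and 23.7 ± 0.405%, and Tet1 1.70 ± 0.142% and 1.52 ± 0.124%. Mbd2 and Mbd3 shared most of the MBD level, with 44.7 ± 6.89% and 47.5 ± 7.18% in WT and 48.0 ± 2.08% and 43.9 ± 2.17% in KO.

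Mbd1 and Mbd2 had the smallest unadjusted p of the 10 genes, and the genes with the most similar profile over the 6 libraries were looked up among 11003 genes. These had a mean of at least 2 CPM, and predicted, clone-named, unnamed and pseudogene symbols were left out. The measure was the root mean square difference of centred log2 CPM. For Mbd1 the nearest were Cdh1 (0.0174), which encodes E-cadherin, Eif3l (0.0182), a translation initiation factor subunit, and Psap (0.0198), a lysosomal precursor protein. For Mbd2 they were Hdgfl3 (0.0231), Vps26a (0.0251), a retromer subunit, and Cgnl1 (0.0273), a junction protein.

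The wider methylation machinery was read from lists chosen by function, with earlier results of these data known, so the shares per list are descriptive. None of 8 other readers passed the edgeR test, against 21.0% of all tested genes. At an unadjusted p below 0.05 there was 1, against 36.3%: Mbd6 (log2 fold change 0.35, adjusted p = 0.0647), which passed in 5 of 17 alternatives. Zbtb38, the most abundant of them, averaged 139 ± 14.1 CPM over WT and 154 ± 1.48 CPM over KO libraries, and Uhrf2 was at 80.2 ± 8.18 and 70.2 ± 5.39 CPM. Zbtb38 was called higher with the GC offset (0.21 on the log2 scale, adjusted p = 0.0202). Of 11 tested writer and maintenance factors, Mat2b, a regulatory subunit of the enzyme that makes the methyl donor, fell from 52.6 ± 1.53 to 41.1 ± 3.44 CPM (adjusted p = 0.0119, -0.36 ± 0.08 on the log2 scale). That is 9.09% lower, against 9.08% of all tested genes. With the Xist term only KO replicate 1 stands against WT, so sex and genotype were not separated for Mat2b or for the lists below. In the main fit the other 10 genes of the list were not called. With the GC offset Ahcy, which clears the product of methyl transfer, was called lower (-0.27 on the log2 scale, adjusted p = 0.0136). The list of 11 had a median log2 fold change of -0.16, against -0.01 over all tested genes.

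Of 22 tested genes of base excision, demethylation and TET supply, 3 were higher and 5 lower (13.6% and 22.7%, against 12.0% and 9.08% of all tested genes). Neil3, a DNA glycosylase, fell from 11.4 ± 0.414 to 7.78 ± 0.559 CPM (adjusted p = 0.00354, -0.54 ± 0.10 on the log2 scale). Tdg, the glycosylase that removes oxidised methylcytosine, fell from 96.2 ± 3.47 to 82.0 ± 3.72 CPM (adjusted p = 0.0374, -0.23 ± 0.07 on the log2 scale). Smug1, another glycosylase, Idh2, which makes 2-oxoglutarate in mitochondria, and Samhd1, a dNTP hydrolase, were the other 3 that fell. Gadd45a, a stress-response gene, rose from 15.1 ± 0.734 to 22.4 ± 1.94 CPM (adjusted p = 0.00217, 0.57 ± 0.09 on the log2 scale). Cxxc4 rose from 0.141 ± 0.0278 to 0.462 ± 0.0593 CPM and Apobec1, a cytidine deaminase, from 1.30 ± 0.241 to 2.67 ± 0.269 CPM. Sex and genotype were not separated for these 8 genes, since the Xist term leaves KO replicate 1 alone against WT. All 8 were called with the GC offset, and so was Parp1 (lower, adjusted p = 0.0496).

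The NuRD complex, which holds Mbd2 or Mbd3, had 2 higher and 4 lower of 13 tested genes (15.4% and 30.8%, against 12.0% and 9.08% of all tested genes). Rbbp4, a histone-binding subunit, fell from 259 ± 15.4 to 191 ± 17.8 CPM (adjusted p = 0.00472, -0.44 ± 0.09 on the log2 scale), and Cdk2ap1 from 46.0 ± 2.7 to 35.1 ± 2.72 CPM. Chd3, a remodelling ATPase, and the deacetylase Hdac1 also fell. Mta3 rose from 41.3 ± 4.70 to 54.5 ± 4.45 CPM, and Chd5, an ATPase known from neurons, from 1.79 ± 0.261 to 3.03 ± 0.269 CPM. All 6 were called with the GC offset, and so was Gatad2b (higher, adjusted p = 0.0080). For these genes too, sex and genotype were not separated.

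Heterochromatin and KRAB zinc finger partners had 6 lower and 1 higher of 16 tested (37.5% and 6.25%, against 9.08% and 12.0% of all tested genes). Suv39h2, a histone H3 lysine 9 methyltransferase, fell from 14.1 ± 1.55 to 9.50 ± 0.881 CPM (adjusted p = 0.00531, -0.57 ± 0.11 on the log2 scale). Zfp57, which keeps methylation at imprinted loci, fell from 15.3 ± 1.15 to 11.2 ± 0.764 CPM, and Cbx3, an HP1 protein, from 74.6 ± 2.48 to 60.8 ± 1.22 CPM. Cbx1, Zfp445 and Morc2a were the other 3. Atf7ip, the partner of Setdb1, rose from 77.7 ± 6.04 to 96.7 ± 1.69 CPM. All 7 were called with the GC offset, and Trim28 was called lower only there (adjusted p = 0.0103). The Xist term leaves only KO replicate 1 to set against WT, so sex and genotype were not separated for the 7.

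Dnmt1 and Uhrf1 are known to follow the cell cycle, so S phase and proliferation genes were read beside them. Of 20 tested, 3 were lower by edgeR and none higher (15% lower, against 9.08% lower and 12.0% higher of all tested genes). At an unadjusted p below 0.05, 6 of the 20 were lower and none higher, against 36.3% of all tested genes in either direction. The 3 called were Mcm6, of the replicative helicase (265 ± 5.29 to 217 ± 14.1 CPM), Tyms, of thymidylate synthesis (62.1 ± 1.36 to 52.4 ± 2.18 CPM), and the mitotic kinase Cdk1 (195 ± 13.4 to 157 ± 13.3 CPM). For the 3, sex and genotype were not separated, as KO replicate 1 is the only KO library without high Xist. The list's median log2 fold change was -0.08. Of the 7 H3K36 methyltransferases, Nsd2 was lower (240 ± 15.1 to 202 ± 9.45 CPM, adjusted p = 0.0394) and Setd2 and the other 5 were not called, so 14.3% were lower against 9.08% of all tested genes. Nsd2 lost its call with the GC offset (adjusted p = 0.0746) and kept it in 7 of 17 alternatives. Its difference was not separated from sex either. With the GC offset Smyd2 was called lower (-0.26 on the log2 scale, adjusted p = 0.0344).

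Germline genes whose promoters are methylated in somatic cells were scarce: only 7 of 22 passed the filter on low counts. Their summed level was 1.79 to 2.003 CPM in WT and 2.11 to 2.79 CPM in KO. Ddx4, a germ cell helicase, was at 0.0811, 0.169 and 0.124 CPM in WT and at 0.386, 0.326 and 0.367 CPM in KO (adjusted p = 0.00866). Rhox13 was at 0.0926, 0.0941 and 0.0725 CPM in WT and at 0.181, 0.158 and 0.234 CPM in KO (adjusted p = 0.0449). Rhox13 passed in 4 of 17 alternatives and lost its call with the GC offset (adjusted p = 0.0521). Neither the Rhox13 nor the Ddx4 difference was separated from sex. With the GC offset Brdt was called higher (adjusted p = 0.0443). A scarce gene can pass the filter through the group where it is higher. Rhox13 (8, 10 and 7 counts in WT) and Ddx4 (7, 18 and 12 counts in WT) needed KO libraries to pass it. Their p-values come after that selection, and the count of called genes says nothing of the list as a whole. DNA methylation itself was not measured here.

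Some markers of cell types other than tubule epithelium were higher in KO and none tested was called lower. Over all tested genes, 12.0% were called higher. In bulk RNA, fewer or more cells of a type and less or more RNA per cell cannot be told apart. Of 12 endothelial markers 6 rose, and their sum was 22.2 to 23.9 CPM in WT and 32.5 to 44.2 CPM in KO. Of 11 tested leukocyte markers 4 rose, with sums of 30.8 to 36.02 and 45.2 to 54.3 CPM, while the T cell marker Cd3e was at 0 in 5 libraries and near 0 in KO replicate 1. Of 11 tested fibroblast, pericyte and smooth muscle markers 7 rose, with sums of 118 to 158 and 120 to 203 CPM. Most of that sum is Acta2 and Tagln, which averaged 52.8 and 58.7 CPM over WT libraries. Neither was called (log2 fold changes of 0.09 and 0.02). Thy1, among the 7, had 6, 6 and 8 WT counts and needed KO libraries to pass the filter on low counts. Its p-value comes after that selection. Of 10 podocyte markers 5 rose, with sums of 598 to 680 and 691 to 724 CPM. Most of the podocyte sum is Nes (541 ± 44.2 CPM over WT libraries), which was not called (-0.06 on the log2 scale). These 2 sums therefore say little of the other markers. Of the 15 tubule markers, Cdh16, Pax2 and Lrp2 rose. With the GC offset Cdh16 (adjusted p = 0.197) and Pax2 (adjusted p = 0.0525) were not called. In that fit Cdh1 was called higher (adjusted p = 0.0187) and Epcam lower (adjusted p = 0.0341). With the Xist term only KO replicate 1 stands for KO, so sex and genotype were not separated for these markers. The part of other cells in the Mbd1, Mbd2 and Tet3 differences was not tested.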

How the data were processed

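RNA was measured in 6 cultures, 3 KO and 3 WT, grouped by sample title. The authors deposited whole-number read counts per Ensembl gene, without normalization. Trimmomatic 0.38, STAR 2.7.1a, HTSeq 0.11.2 and mm10 are named per the submitters' processing notes, while the annotation, strand setting and treatment of multiply mapping reads were not given in those notes or the labels. Symbols, lengths and sequences came from GENCODE M21 (GRCm38), which matched 48144 of 48526 genes.

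Counts were tested with edgeR 4.0.16 (R 4.3.3): filterByExpr with a minimum count of 10, TMM factors, a quasi-likelihood fit with genotype as the term, and Benjamini-Hochberg adjustment over 17571 genes at 0.05. The standard error of a log2 fold change was its size divided by the root of the F statistic. TPM was computed from counts and exon lengths. Intervals are 95% and come from the fit. Depth was 86078636 to 106974842 counts per library, and counting error weighs most on scarce genes such as Tet1, Ddx4 and Rhox13.

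The 10 genes and the 13 lists (185 symbols) were chosen with earlier results of these data known. Named list genes were up to 4 called members by smallest adjusted p or, where none passed, the 2 most abundant. Others named are the remaining called members of small counts, named after their values were seen. Alternatives were the replicate block, DESeq2 1.42.0 and its size factors, library totals, upper-quartile factors, other filters, limma-voom (limma 3.58.1), a term for the 2 Xist-positive libraries (limit 10 CPM), leaving out each library and, chosen after seeing the data, an offset for each library's GC trend, alone and with the block. Figures used matplotlib 3.10.9.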

Additional observations from a re-analysis of the deposited data

How the results depend on the processing

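The count of the 10 genes called higher was 2 in place of 1 (Mbd2 beside Mbd1) with DESeq2's size factors, library totals, upper-quartile factors, a mean CPM of at least 1 and the DESeq2 test. It was 0 to 2 when 1 library was left out (2 without WT replicate 1, 0 without any other). The count called lower was 1 (Tet3) with the GC offset and 1 with the GC offset and the replicate block. Over all genes, the Xist term gave 878 higher and 285 lower. Leaving out 1 library gave 1228 to 2142 higher and 455 to 1624 lower, both lowest without KO replicate 1. There were 1321 higher and 612 lower without KO replicate 3, 1003 lower without WT replicate 2 and 1044 lower without KO replicate 2.

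Small log2 fold changes turned sign. Uhrf1 was -0.0076 without a filter, -0.0388 with the GC offset and -0.0389 with block and offset, and ran from -0.0403 to 0.069 when 1 library was left out. Dnmt1 was -0.023 with the offset and -0.0213 with block and offset. Tet2 was -0.0199 with the Xist term and ran from -0.00037 to 0.20 with 1 library left out. Mbd3 was -0.0045 with the Xist term, -0.15 with the offset and -0.15 with block and offset, and ran from -0.13 to 0.15 with 1 library left out. Why these moved was not tested.

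Same-numbered WT and KO libraries had correlations of 0.0417, -0.146 and 0.0324 between their deviations, so no pairing by number was seen. With 3 libraries per group and opposite GC trends in WT replicates 1 and 3, these values cannot exclude pairing. With the replicate block the adjusted p of Mbd1 was 0.0838 and that of Mbd2 0.028, so the count of 1 then named Mbd2. The same exchange came without a filter, with 0.106 for Mbd1 and 0.024 for Mbd2.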
